A study of Mus musculus with 14 samples.

Results

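Ifitm1, Ifitm2 and Ifitm3 are interferon-induced transmembrane genes, and they were followed here through the emergence of haematopoietic stem cells in the mouse aorta at embryonic days (E) 10 and 11. They are 3 of the 19424 genes in the E11 single-cell table and of the 19322 genes in the E10 table. They were picked by symbol, and the family was picked because Ifitm1 was among the genes that differed most between haemogenic endothelium and transitioning cells at E10. That contrast is therefore given below as a description. The other 4 Ifitm genes of the tables, Ifitm5, Ifitm6, Ifitm7 and Ifitm10, are given only for comparison.

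IFITM proteins are small membrane proteins of the plasma membrane and endosomes that hinder the fusion of enveloped viruses with the cell, and interferons induce their genes. Interferons bind receptors on the cell surface, JAK kinases then phosphorylate STAT proteins, and STAT and IRF factors bind short elements near the start of target genes. IFITM1 and IFITM3 are also surface markers in embryos, best known from the first germ cells. In the aorta, haemogenic endothelium (HE) lines the vessel wall, undergoes endothelial-to-haematopoietic transition (EHT) and forms intra-aortic haematopoietic clusters (IAHCs), in which the precursors of haematopoietic stem cells (pre-HSCs) mature.

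The promoters are shown because the 3 genes are neighbours with like names, and the windows at their RefSeq starts differ in the interferon elements that they hold. Ifitm2 lies on the minus strand of chromosome 7 in mm10 (GRCm38), at chr7:140954837-140955987, with 2 exons. Ifitm1 lies 11233 bases further, on the plus strand at chr7:140967221-140969825, with 3 exons. Ifitm3 follows after 39760 bases on the minus strand, at chr7:141009586-141010770, with 2 exons. The sequences below run 5′ to 3′ on the strand of the gene, from 250 bases before to 50 bases after the RefSeq start in GRCm38.p6. All 3 genes matched the RefSeq table by symbol. Capitals mark the core of the interferon-stimulated response element (ISRE, here GAAA and GAAA with any 2 bases between them) and the gamma-activated site (GAS, TTCNNNGAA), searched on both strands. The windows are chr7:140967826-140968125 for Ifitm1, chr7:140955912-140956211 for Ifitm2 and chr7:141010695-141010994 for Ifitm3.

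Ifitm1: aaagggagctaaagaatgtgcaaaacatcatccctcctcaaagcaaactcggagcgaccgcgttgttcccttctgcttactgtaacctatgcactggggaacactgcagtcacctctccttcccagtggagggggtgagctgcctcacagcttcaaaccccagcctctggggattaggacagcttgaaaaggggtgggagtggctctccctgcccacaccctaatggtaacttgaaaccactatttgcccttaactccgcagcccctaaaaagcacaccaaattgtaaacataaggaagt

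Ifitm2: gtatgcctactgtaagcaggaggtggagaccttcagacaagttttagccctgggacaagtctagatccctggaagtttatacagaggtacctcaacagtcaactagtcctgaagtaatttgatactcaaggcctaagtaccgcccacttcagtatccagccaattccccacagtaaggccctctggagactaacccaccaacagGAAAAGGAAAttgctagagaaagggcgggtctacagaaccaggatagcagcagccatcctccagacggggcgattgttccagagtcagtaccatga

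Ifitm3: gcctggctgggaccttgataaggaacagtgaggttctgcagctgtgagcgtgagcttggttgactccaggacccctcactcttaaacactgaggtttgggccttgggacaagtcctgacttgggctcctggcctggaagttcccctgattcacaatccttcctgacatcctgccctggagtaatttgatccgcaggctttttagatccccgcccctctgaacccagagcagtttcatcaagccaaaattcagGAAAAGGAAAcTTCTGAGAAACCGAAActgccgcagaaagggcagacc

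The Ifitm1 window held neither element. The RefSeq start of Ifitm1 lies inside the gene given above from GENCODE, whose own start is upstream of the window and was not searched. The Ifitm2 window held 1 ISRE core, GAAAAGGAAA, at bases 205 to 214. The Ifitm3 window held the same GAAAAGGAAA at bases 253 to 262 and a second core, GAAACCGAAA, at bases 270 to 279. A GAS match, TTCTGAGAA, lay at bases 264 to 272 and overlapped the second core of Ifitm3. Of 32851 RefSeq promoter windows of this length, 3.44% held the ISRE core and 8.3% the GAS. None of the 3 windows held TGTGGT, the RUNX core found in 16.8% of windows, or AGATAA, the GATA core found in 11.2%. These are matches of letters and not measured binding. Reads near the 3′ end could be told apart between the genes, since no run of 35 bases in the last 300 bases of their transcripts was shared within the family.

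The transcripts were counted by CEL-Seq, in which each molecule carries a random barcode, in single sorted cells and in whole IAHCs picked mechanically from embryo slices. Non-HE endothelium (Cdh5+ Gfi1- Gfi1b- c-kit-), HE (Cdh5+ Gfi1+ Gfi1b- c-kit-) and EHT cells (Cdh5+ Gfi1+ Gfi1b- c-kit+) came from the aorta-gonad-mesonephros region (AGM) of ICR embryos, all labelled with the reporter genotype Gfi+/tomato/ Gfi1b+/GFP. IAHC cells (c-kit+ CD31+, at E11 also c-kit+ alone), E11 pre-HSCs (c-kit+ Cdh5+, type I CD45- and type II CD45+), yolk sac (YS) haematopoietic stem and progenitor cells (HSPCs, c-kit+) and whole IAHCs (c-kit+) came from wild-type C57BL/6 embryos. Strain and reporter alleles thus cannot be told apart from population between EHT cells and the other c-kit+ cells. E10 embryos had 28 to 32 somite pairs and E11 embryos over 40. AGMs were pooled before dissociation, and each single-cell population is 1 labelled sample (both pre-HSC types are in 1). No test was therefore made between populations, except that the pre-HSC types were paired by set. Intervals are exact 95% intervals of counting error alone, and they are too narrow wherever cells or sorted sets differ.

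At E10 there were 546 cells of 3000 transcripts and at E11 575 cells of 5000, in 30 sorted sets, so levels were compared within a stage unless stated. The E10 non-HE cells sit in the E10 table under column names that read early E11, and their stage is taken here from the sample label, E10. No 2 cells were identical across the 96 well barcodes that the sets share. At E10 the endothelial markers summed to 31.9 transcripts per cell in HE and 9.82 in EHT cells, and the haematopoietic markers to 1.83 and 8.42, so the cells held the markers of their labels. Macrophage markers (at least 4 in a cell) marked 1 HE and 1 EHT cell at E10, and at E11 3 of 46 EHT cells and 1 c-kit+ CD31+ IAHC cell. The IAHC cells had been preselected by the study on Gpr56 and against genes of mesenchyme and erythro-myeloid progenitors, which shaped those populations.

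Ifitm1 had 1 transcript in non-HE at each stage, was low in HE, and was near or above 2 transcripts per cell in the c-kit+ aortic populations. At E10 it had 1 transcript in 43 non-HE cells (0.0233 per cell, 0.000589 to 0.130), 15 in 98 HE cells (0.153, 0.0857 to 0.253) and 360 in 191 EHT cells. The EHT mean was 1.885 per cell (1.695 to 2.09), and the 73 E10 IAHC cells had 2.36 (2.02 to 2.74). The share of cells with a transcript followed the same order, with 2.33% of non-HE, 13.3% of HE, 55.5% of EHT and 71.2% of IAHC cells. Among all genes with a transcript in a population, Ifitm1 ranked 8622nd of 10605 in non-HE, 4337th of 11690 in HE, 173rd of 12312 in EHT and 129th of 10609 in IAHC cells. The single transcript in non-HE cells sets the background against which the HE value can be read, and the intervals of both overlapped.

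The sorted sets gave the same order. The 3 E10 EHT sets had 2.44, 1.75 and 1.54 Ifitm1 transcripts per cell, all above both HE sets at 0.135 and 0.164 and both non-HE sets at 0 and 0.0667. The column names of the last 2 EHT sets read late E10, and those of the first EHT set and both HE sets do not. The sets may thus differ in age, and the part of age in their spread was not tested. E10 YS HSPCs, which are haematopoietic progenitors made outside the aorta, had 0.319 per cell (0.233 to 0.427), with 0.231 and 0.395 in their 2 sets. The YS sets thus lay above the HE sets and below every EHT set.

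At E11 the order from endothelium to EHT was the same. Ifitm1 had 1 transcript in 30 non-HE cells (0.0333 per cell), 0.457 per cell in 46 HE cells (0.283 to 0.698) and 2.76 in 46 EHT cells (2.30 to 3.29). It was found in 3.33%, 32.6% and 80.4% of those cells. The later aortic populations lay in a narrow band, with 1.90 per cell in type I pre-HSCs (1.58 to 2.28), 2.06 in c-kit+ IAHC cells (1.77 to 2.38), 2.20 in c-kit+ CD31+ IAHC cells (2.00 to 2.42) and 2.709 in type II pre-HSCs (2.29 to 3.18). Neighbours in this order had overlapping intervals. Their sets overlapped as well: 0.875, 1.912 and 2.30 in type I, 2.30, 2.44 and 3.25 in type II, 2.22, 1.75, 2.33 and 2.67 in c-kit+ CD31+ cells, and 1.73, 2.06, 3.52, 2.00 and 0.846 in c-kit+ cells. The pre-HSC types, however, came from the same stained cells and share their set numbers, and within each of the 3 sets Ifitm1 was higher in type II. Paired by set, its log2 ratio of type II to type I was 0.71 ± 0.52 (SD, 3 sets, range 0.34 to 1.3), with an exact two-sided sign-flip permutation p of 0.25 (0.375 adjusted over the 3 members), and 0.25 is the smallest that 3 pairs allow. The sets belong to 1 labelled sample.

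Ifitm2 differed from Ifitm1 in being present in endothelium at both stages. Its E10 means were 1.372 per cell in non-HE (1.05 to 1.77), 2.04 in HE (1.77 to 2.34), 1.81 in EHT (1.621 to 2.007), 1.07 in IAHC (0.845 to 1.33) and 0.284 in YS HSPCs (0.203 to 0.386). It was found in 69.8% of non-HE and 83.7% of HE cells, and in HE it ranked 151st by mean. At E11 it was 1.97 in non-HE, 2.652 in HE and 2.70 in EHT cells, then 1.93 in c-kit+ CD31+ IAHC cells, 1.45 in type I, 1.09 in YS HSPCs, 1.04 in type II and 0.910 in c-kit+ IAHC cells. The intervals of HE (2.20 to 3.17) and EHT (2.242 to 3.214) overlapped, as did those of the lowest 3, at 0.807 to 1.43 for YS, 0.785 to 1.34 for type II and 0.723 to 1.13 for c-kit+ cells. Ifitm2 was thus highest in HE and EHT cells and lower in cluster cells.

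Ifitm3 was also present in endothelium at both stages, and at E11 it was highest in HE and EHT cells. Its level in the yolk sac was below that of Ifitm2. Its E10 means were 0.837 in non-HE (0.586 to 1.16), 1.19 in HE (0.987 to 1.43), 1.314 in EHT (1.16 to 1.49), 1.123 in IAHC (0.893 to 1.394) and 0.0922 in YS HSPCs (0.0491 to 0.158). The 4 aortic populations differed little, and the yolk sac stood below them. At E11 it was 1.43 in non-HE (1.04 to 1.93), 2.57 in HE (2.12 to 3.07) and 3.07 in EHT (2.58 to 3.62), where it was found in 87.0% of cells and ranked 198th. It was 1.572 in c-kit+ CD31+ cells (1.404 to 1.755), 1.345 in type II, 1.306 in type I, 0.764 in c-kit+ IAHC cells (0.593 to 0.969) and 0.326 in YS HSPCs (0.183 to 0.538). The sets of E10 HE differed for Ifitm3, at 0.730 and 1.475, and this spread was wider than the counting interval of the mean.

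**Figure D1:**
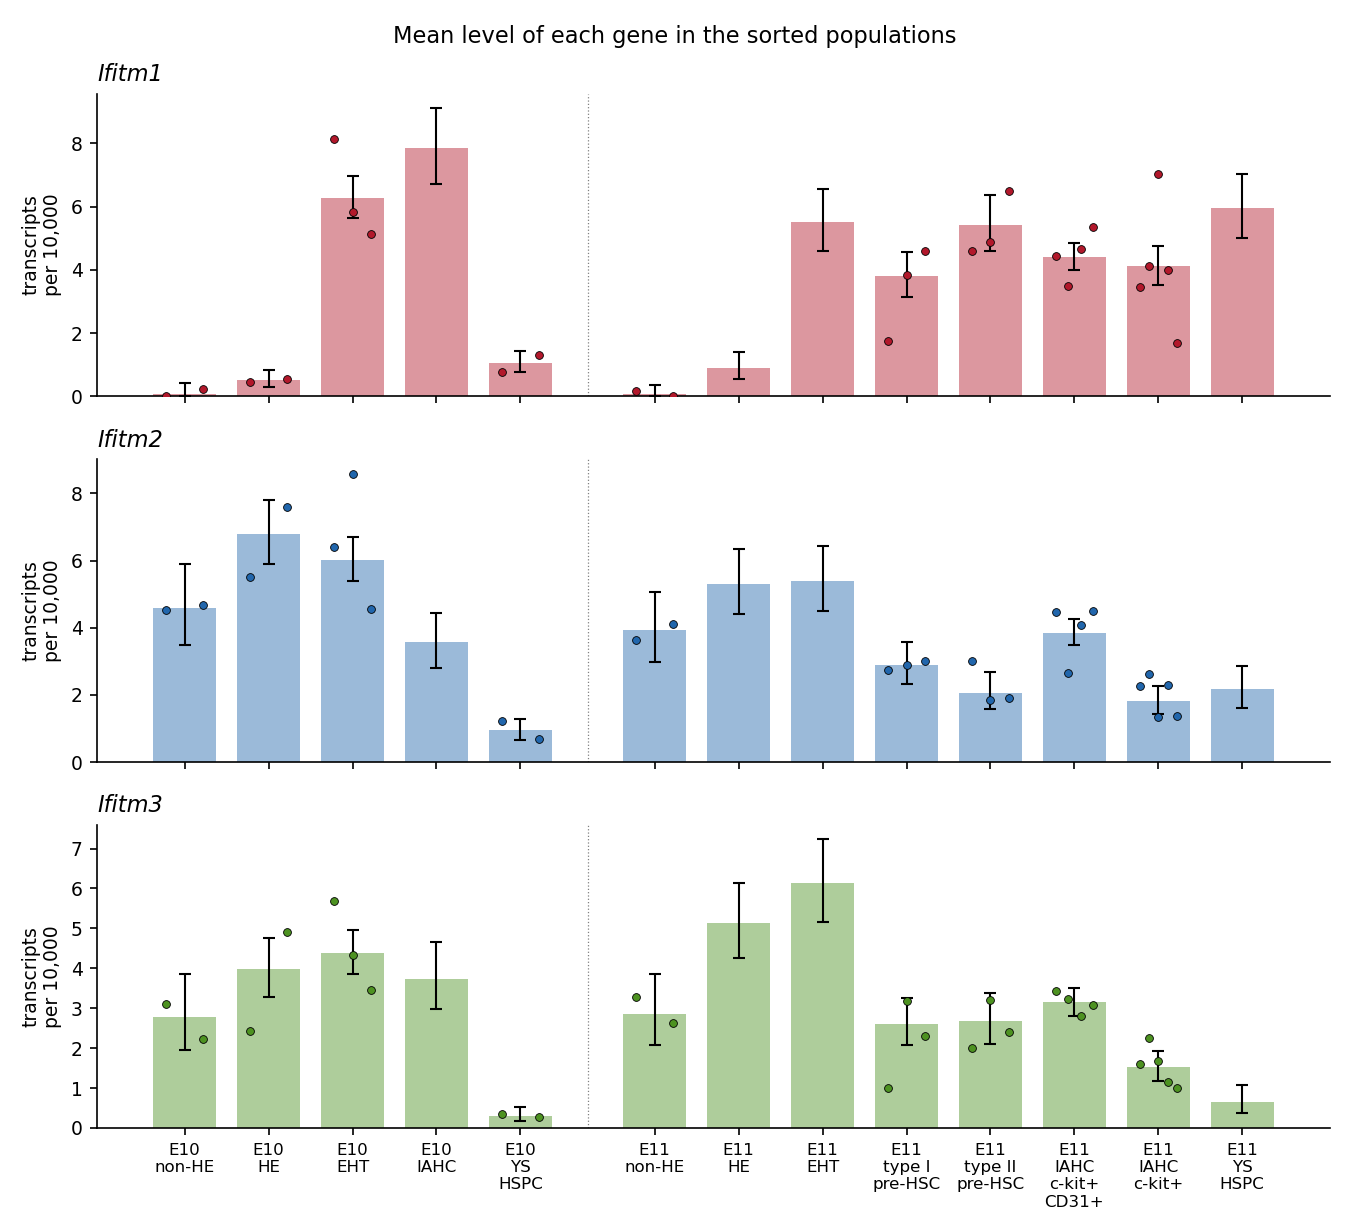
Mean level of Ifitm1, Ifitm2 and Ifitm3 (y axis, transcripts per 10000) in the 13 sorted populations (x axis), E10 to the left of the dotted line and E11 to the right. Bars are means over cells, lines are 95% counting intervals and points are sorted sets where a population has several. Ifitm1 is near 0 in non-HE and low in HE at both stages, and Ifitm2 and Ifitm3 are present there.

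The make-up of the family differed along the pathway. Ifitm1 gave 1.04% of the 3 genes' transcripts in E10 non-HE, 4.52% in HE, 37.7% in EHT and 51.8% in IAHC cells. Ifitm2 gave 61.5%, 60.2%, 36.1% and 23.5% of them, and Ifitm3 37.5%, 35.2%, 26.3% and 24.7%. At E11 the share of Ifitm1 was 0.971% in non-HE, 8.05% in HE, 32.4% in EHT, 40.8% in type I and 53.2% in type II cells. The sum of the 3 genes per cell was 2.23, 3.39, 5.01 and 4.55 from E10 non-HE to IAHC cells and 0.695 in YS HSPCs. It was 3.43, 5.67 and 8.52 in E11 non-HE, HE and EHT cells, and 3.73 to 5.70 in the other E11 populations. Cells without a transcript of any of the 3 made up 25.6% of E10 non-HE, 7.14% of HE, 4.71% of EHT and 8.22% of IAHC cells, but 63.8% of E10 YS HSPCs. At E11 there was no such cell in HE or EHT, and 26.1% of YS HSPCs were without any.

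**Figure D2:**
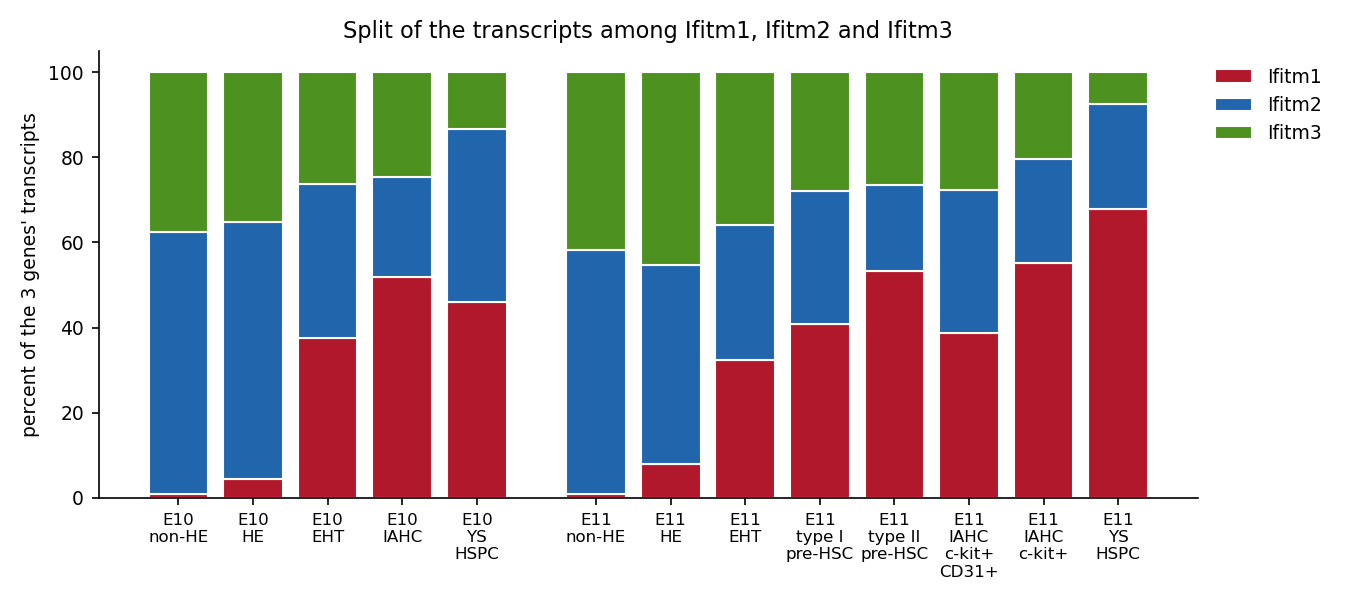
Share of the 3 genes' summed transcripts (y axis, percent) that came from Ifitm1, Ifitm2 and Ifitm3 in each sorted population (x axis). The Ifitm1 part goes from 1.04% in E10 non-HE to 51.8% in E10 IAHC cells.

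Between neighbouring populations, the ratio of means was set beside that of all genes reaching a minimum. The minimum was a mean of 0.2 transcripts per cell in 1 of the 2 populations. A 2-fold difference (on log2 ratios with a pseudocount of 0.1 per cell) was counted. A gene under the minimum in 1 population entered through the other alone, which favours its being counted. From non-HE to HE at E10, 3.34% of genes were 2-fold higher and 4.19% lower, and neither Ifitm2 (1.49-fold, 1.11 to 2.02) nor Ifitm3 (1.43-fold, 0.974 to 2.13) was among them. Ifitm1 was below the minimum in both populations and had a ratio of 6.58 (1.01 to 277). At E11 the background was 5.6% higher and 5.24% lower. Ifitm1 was 13.7-fold higher in HE than in non-HE (2.20 to 566) and was the only member past 2-fold, at rank 9 of 5874 genes. This ratio rests on 1 transcript in non-HE cells, and so its interval is wide. Ifitm3 was 1.79-fold higher (1.25 to 2.60) and Ifitm2 1.349-fold (0.981 to 1.87).

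From HE to EHT at E10, the contrast by which the family was picked, Ifitm1 had a ratio of 12.3 (7.37 to 22.2) and a log2 ratio of 2.97, rank 2 of 4205 genes, of which 3.33% were 2-fold higher and 6.71% lower. Ifitm2 (0.885-fold, 0.741 to 1.06) and Ifitm3 (1.101-fold, 0.880 to 1.38) stayed within 2-fold there. At E11, in cells that did not enter that choice, Ifitm1 was again higher in EHT, 6.05-fold (3.79 to 10.1) with a log2 ratio of 2.36. It was 27th of 5703 genes, of which 6.75% were 2-fold higher and 9.49% lower. Ifitm2 had a ratio of 1.02 (0.785 to 1.32) and Ifitm3 of 1.195 (0.929 to 1.54). At E11 Ifitm1 was thus the only 1 of the 3 past 2-fold. The E10 ratio of Ifitm1 is a description only, since it led to the choice and Ifitm1 reached the minimum there in EHT alone (0.153 per cell in HE). The intervals of the other 2 genes excluded a 2-fold difference by counting error at both stages. Without the set 2 of E10 HE, however, the E10 log2 ratio of Ifitm3 went from 0.13 to 0.77.

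From EHT to IAHC cells at E10, Ifitm1 was 1.25-fold higher (1.036 to 1.503), Ifitm2 0.592-fold (0.457 to 0.758) and Ifitm3 0.855-fold (0.658 to 1.101). None of the 3 passed 2-fold, as 2.25% of genes did upward and 5.7% downward. From EHT to c-kit+ CD31+ IAHC cells at E11, all 3 were lower, with ratios of 0.798 (0.654 to 0.980), 0.714 (0.582 to 0.882) and 0.513 (0.419 to 0.630) for Ifitm1, Ifitm2 and Ifitm3. None passed 2-fold on the log2 scale with the pseudocount, where 5.17% of genes were higher and 10.6% lower. From EHT to type I pre-HSCs, Ifitm3 passed it with a log2 ratio of -1.17 (0.426-fold, 0.320 to 0.564), beside 9.87% of genes 2-fold lower and 3.81% higher. Ifitm1 and Ifitm2 had log2 ratios of -0.51 and -0.85. Strain and reporter alleles differ in each of these 3 comparisons.

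The pre-HSC types were told apart by the surface protein CD45, and from type I to type II no member differed 2-fold, while 3.14% of 4996 genes were higher or lower by that much. Ifitm1 was 1.423-fold higher in type II (1.11 to 1.83), Ifitm2 0.714-fold (0.503 to 1.01) and Ifitm3 1.03-fold (0.741 to 1.43). Within sets 1, 2 and 3, Ifitm2 went from 1.375 to 1.5, from 1.441 to 0.920 and from 1.5 to 0.95, with no common direction. Ifitm3 went from 0.5 to 1 in set 1, from 1.588 to 1.6 in set 2 and from 23 to 24 transcripts in 20 cells of each type in set 3. From c-kit+ CD31+ to c-kit+ IAHC cells at E11, Ifitm2 and Ifitm3 were lower by about the 2-fold limit and Ifitm1 differed less. Ifitm2 was 0.473-fold (0.367 to 0.602) with a log2 ratio of -1.004, the only member past 2-fold and 71st from the bottom of 4903 genes, of which 2.67% were higher or lower by at least 2-fold. Its log2 ratio ranged from -1.17 to -0.88 as single sets were left out, so leaving out a set can end this call. The same populations differed in markers, with the mesenchymal list summing to 0.955 transcripts per cell in c-kit+ CD31+ and 1.81 in c-kit+ cells (9 and 10 of its 10 genes with a transcript) and the endothelial list to 12.3 and 7.61 (12 of 12 genes in both), and their part was not tested. Ifitm3 was 0.486-fold (0.368 to 0.633) with a log2 ratio of -0.95 (-1.09 to -0.78 without single sets), 87th from the bottom. Ifitm1 was 0.933-fold (0.781 to 1.11), and its log2 ratio went from -0.54 to 0.20 as single sets were left out.

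YS HSPCs at E10 had less of all 3 genes than E10 IAHC cells. Ifitm1 was 7.38-fold lower (5.29 to 10.49), Ifitm2 3.77-fold lower (2.54 to 5.66) and Ifitm3 12.2-fold lower (6.74 to 23.9). All 3 passed 2-fold, as did 6.4% of the 3812 genes downward and 3.83% upward. Ifitm3 stood 13th, Ifitm1 17th and Ifitm2 80th from the bottom. At E11, YS HSPCs had 0.207-fold the Ifitm3 level of c-kit+ CD31+ IAHC cells (0.115 to 0.347) and 0.565-fold the Ifitm2 level (0.412 to 0.759). Ifitm3 was the only member past 2-fold, beside 9.53% of genes higher or lower by that much.

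Ifitm1 in the E11 yolk sac rested on 2 cells. The mean of 46 cells was 2.98 (2.50 to 3.52), yet 43.5% of cells had a transcript, 2 cells held 52 and 45 transcripts and the next cell held 6. Without these 2 cells, which were left out only once their values were known, the mean was 0.909, and the log2 ratio to c-kit+ CD31+ IAHC cells turned from 0.42 to -1.19. The order of the E11 yolk sac among the populations for Ifitm1 therefore depends on these cells.

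**Figure D3:**
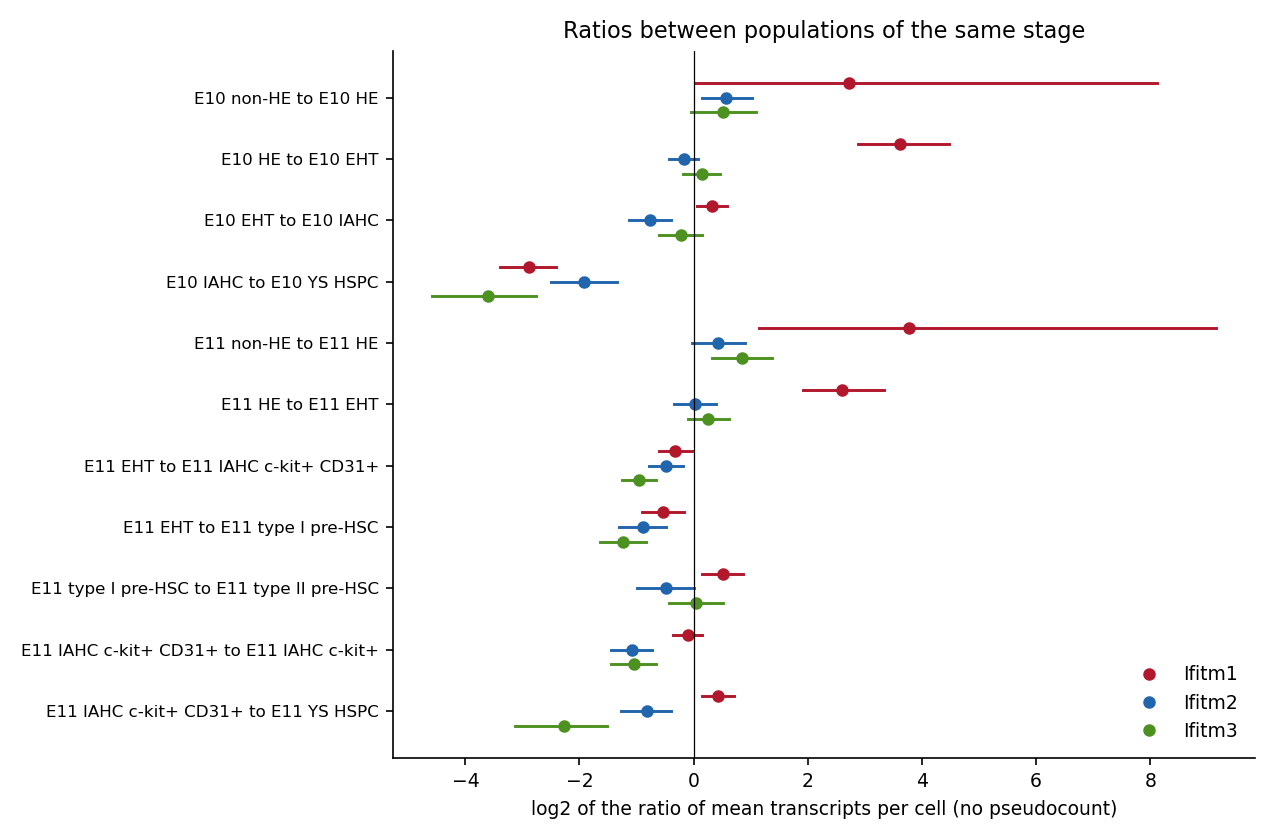
Ratios of mean transcripts per cell between pairs of populations of one stage (x axis, log2 without pseudocount; y axis, the pairs, second over first) for Ifitm1, Ifitm2 and Ifitm3. Points are ratios and lines their exact 95% counting intervals. Ifitm1 lies to the right of the others from HE to EHT at both stages, and all 3 lie to the left of 0 from E10 IAHC to YS HSPCs.

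The E10 and E11 tables differ in depth and in the genes that they list. The E10 table lacks 102 genes of the E11 table, all named as ribosomal protein genes, which held 13.9% to 25.5% of the E11 transcripts. For a comparison of stages, E11 cells were therefore reduced to the genes of both tables and thinned to 3000 transcripts, an alternative added after the data were seen. In non-HE cells the stages lay close, with ratios of 0.996 for Ifitm2 (0.652 to 1.51) and 0.956 for Ifitm3 (0.545 to 1.65) and with 1 Ifitm1 transcript at each stage, beside 4.79% of genes 2-fold higher and 4.23% lower. Because the E10 non-HE columns are named early E11, how far apart in age these cells were is not certain. Ifitm3 was then higher at E11 in HE (1.55-fold, 1.16 to 2.06) and EHT cells (1.687-fold, 1.33 to 2.13), and Ifitm1 in HE (2.27-fold, 1.05 to 4.94) but not in EHT cells (1.015-fold, 0.795 to 1.285). Over all genes the log2 ratio of Ifitm3 in HE was 0.36, and it was 0.080 without the set 1 and 1.005 without the set 2 of E10 HE, so it depends on which set is kept. No member passed 2-fold in EHT cells, where 4.34% of genes were higher or lower, nor, with the pseudocount, in HE cells (4.21% higher and 3.63% lower). In c-kit+ CD31+ IAHC cells, Ifitm1 was 0.752-fold (0.625 to 0.907) and Ifitm2 1.43-fold (1.11 to 1.86), both within 2-fold (1.13% higher and 1% lower).

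In YS HSPCs the stages lay further apart. Ifitm2 was 3.30-fold higher at E11 (2.09 to 5.20), with a log2 ratio of 1.43. Ifitm3 was 2.59-fold higher (1.05 to 6.27) but, with the pseudocount, its log2 ratio of 0.82 did not pass 2-fold. Ifitm1 was 8.17-fold higher (5.76 to 11.8), rank 1 of 3634 genes, of which 3.14% were 2-fold higher and 2.59% lower. With all genes kept, the log2 ratio of Ifitm1 was 2.26, and it was 0.77 without the 2 cells named above. With all genes and all cells kept, the log2 ratios of Ifitm2 and Ifitm3 were 0.89 (0.59 to 1.19 without single sets) and 0.62 (0.51 to 0.72). Both were within 2-fold, but leaving out 1 E10 set took Ifitm2 past it. Each stage is 1 labelled sample here, and no test was made.

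By the ratio of variance to mean over cells, Ifitm1 was the most unevenly spread of the 3 in all populations but E10 HE and the non-HE of both stages, where Ifitm3 was. In E10 EHT cells its variance was 4.95 times its mean, the highest cell held 22 transcripts, and the 10% of cells with the most held 49.2% of its transcripts, against 25.5% for Ifitm2 and 33.5% for Ifitm3. In E11 c-kit+ IAHC cells the ratio of variance to mean was 6.89, and the top 10% held 52.5%, 35.8% and 41.2%. These shares lay close in E10 IAHC cells (31.4%, 30.8% and 31.7%), and in E10 YS HSPCs that of Ifitm3 (100%) was above that of Ifitm1 (80%). Only 11 of the 141 YS cells held Ifitm3, fewer than the 14 cells of the top 10%, so its 100% was bound to follow. A Poisson spread would give a ratio of 1, so the counting intervals of Ifitm1 understate its error.

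**Figure D4:**
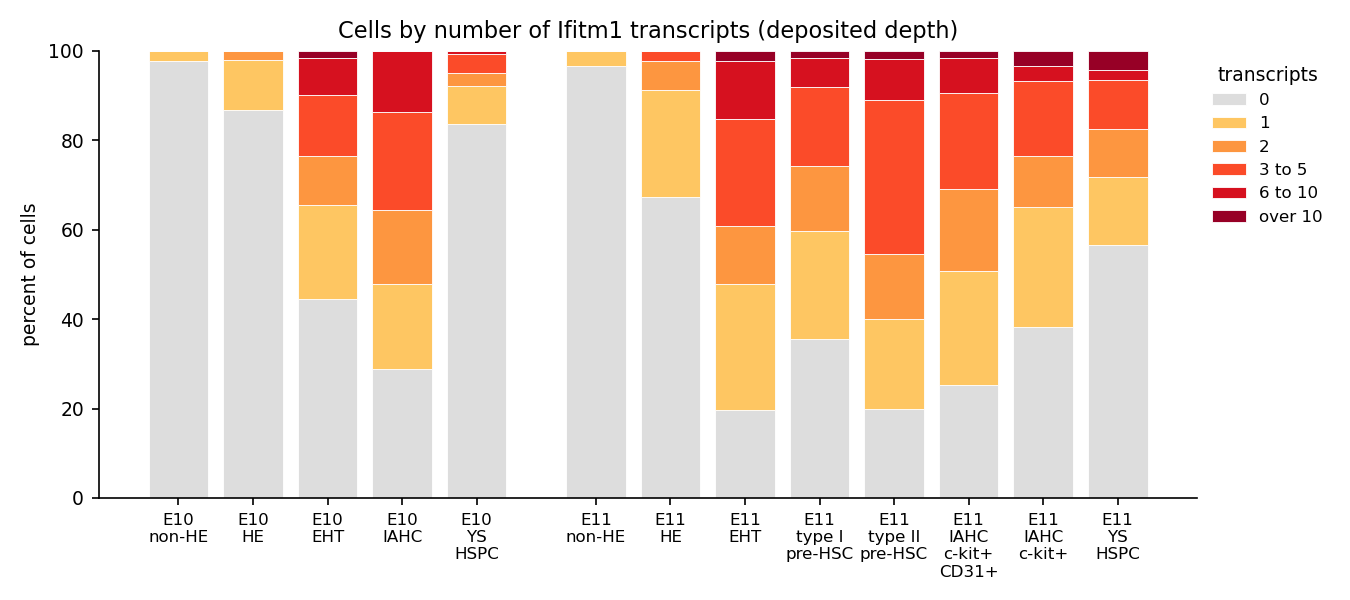
Percent of cells (y axis) by number of Ifitm1 transcripts at the deposited depth (colours, from 0 to over 10) in each sorted population (x axis). Cells without a transcript make up 97.7% of E10 non-HE and 28.8% of E10 IAHC cells, and cells with over 10 are found in EHT and cluster cells, pre-HSCs and the E11 yolk sac.

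The 3 transcripts were found together in 30.9% of E10 EHT cells, 71.7% of E11 EHT cells, 45.3% of c-kit+ CD31+ and 25.8% of c-kit+ IAHC cells. Ifitm3 was found in 73.3% of c-kit+ CD31+ cells with Ifitm1 and in 45.1% of those without, and in 61.8% and 26.5% of c-kit+ IAHC cells. In E10 EHT cells these shares were closer, at 71.7% and 60%. The E10 and E11 shares come from cells of different depth and are not compared.

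Ifitm1 was higher in E10 EHT cells that held transcripts of Ptprc (which encodes CD45) or Rac2 (a blood-cell GTPase), and in E11 c-kit+ IAHC cells with Ptprc. In E10 EHT cells it was 4.05 per cell in 41 cells with Rac2 (3.46 to 4.71) and 1.293 in 150 without, and 4.56 in 16 cells with Ptprc and 1.64 in 175 without. The 47 EHT cells without Cdh5, the endothelial cadherin, had 2.79 and the 144 with it 1.59. Ifitm2 (2.05 and 1.74) and Ifitm3 (1.61 and 1.23) differed less by Rac2. In E11 c-kit+ IAHC cells, 18 cells with Ptprc had 4.78 Ifitm1 transcripts and 71 without had 1.366.

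The other 2 genes went with Cdh5 in E11 c-kit+ CD31+ IAHC cells, and Ifitm3 did so in E11 c-kit+ IAHC cells. In E11 c-kit+ CD31+ cells with Cdh5, Ifitm2 was 2.13 and Ifitm3 1.75, against 1.32 and 1.04 in cells without, and Ifitm1 was 2.20 and 2.22. In c-kit+ IAHC cells Ifitm3 was 1.04 with Cdh5 and 0.465 without, and Ifitm1 1.478 and 2.67. Type II pre-HSCs ran the other way for Ifitm1, with 2.11 in cells with Rac2 and 3.94 without, and 3.21 in cells with Cdh5 and 1.59 without. By Ptprc, type II cells had 2.53 Ifitm1 transcripts with it and 2.775 without. In c-kit+ CD31+ cells, Ifitm3 was higher with Ptprc (2.48 against 1.419), as was Ifitm1 (3.41 against 2). In E10 EHT cells Ifitm3 was lower with Cdh5 (1.243) than without (1.532), and Ifitm2 nearly equal (1.819 and 1.766). Which gene went with which marker thus differed between populations. These are values over cells of 1 sample, with no test.

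Across the 13 populations, levels were compared between each member and all other genes. By Pearson correlation of log2 levels over 3090 genes, the 5 genes most like Ifitm1 were Ptk2b (0.972), Alox5ap (0.968), Cyth4 (0.966), Sfpi1 (0.940), which encodes the transcription factor PU.1, and Runx1 (0.938), the transcription factor required for EHT. Those most like Ifitm2 were Crtap (0.940), Plp2 (0.932), Marcksl1 (0.932), Pdcd4 (0.929) and Vasp (0.928). Those most like Ifitm3 were Tmem176b (0.960), Smo (0.957), the Hedgehog signal transducer, Procr (0.932), the endothelial protein C receptor, Sptssa (0.930) and Txnip (0.929). Ifitm2 and Ifitm3 were like each other (0.894), each within the top 27 of the other. Ifitm1 had -0.166 with Ifitm2 and 0.00 with Ifitm3. The points share stage, table and sorting, and the correlations are descriptions. With E11 populations alone, 1 of the 5 genes was kept for Ifitm1 and 0 for each of the others, and 3 of 5 were kept for each without the 2 high YS cells.

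Other genes of the interferon pathway were read in the same cells. Of 9 listed interferon genes, 2 were in the tables (Ifnk and Ifne), and no cell held a transcript of either. The 6 receptor chains summed to 0.794 to 1.78 transcripts per cell, with Ifngr1 at 0.314, Ifnar2 at 0.241, Ifnar1 at 0.225 and Ifngr2 at 0.173 in E10 EHT cells. Of the receptors, 4 could be compared from HE to EHT at E10 and 3 at E11, and none passed 2-fold. Of all genes compared there, 3.33% were 2-fold higher and 6.71% lower at E10, and 6.75% and 9.49% at E11. Among 16 signalling genes, 5 could be compared at E10, and only Ptpn6, a phosphatase that damps cytokine signals, was 2-fold higher in EHT (0.0408 to 0.738 per cell). At E11, Irf1, a transcription factor that interferons induce (0.0652 to 0.239), and Ptpn6 (0.0870 to 0.587) were 2-fold higher in EHT, and none of the list was lower.

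Of 48 other interferon targets, 46 were in the tables. From HE to EHT at E10, 7 could be compared, of which 1 was 2-fold higher (Ly6e, a membrane-anchored Ly6 protein, 0.0408 to 0.487) and 0 lower. Of all genes compared, 3.33% were higher and 6.71% lower. Ly6e reached the minimum of 0.2 per cell in EHT alone, which favoured its being counted as higher. The median log2 ratio of the targets was 0.14, beside 0.04 over all genes. At E11, 4 of 12 were higher (Ly6a, which encodes the stem cell antigen Sca-1, Ly6e, the proteasome gene Psmb10 and the MHC class I gene H2-K1) and 0 lower, where 6.75% of all genes compared were higher and 9.49% lower, with a median of 0.69 beside -0.07. The summed targets were 5.45 and 5.19 per cell in E10 HE and EHT, and 9.63 and 16.8 in E11 HE and EHT. Without the 3 EHT cells with macrophage markers, the E11 EHT sum was 9.44, Ly6e went from 1.30 to 0.302, B2m from 4.91 to 2.70 and H2-K1 from 2.02 to 1.116. In that comparison, added after seeing the data, 2 of 11 targets were higher than in HE (Ly6e and Psmb10) and 0 lower, with a median of 0.23 beside -0.04. The 13 macrophage markers of the table summed to 6.13 per cell in all 46 E11 EHT cells, with 10 of them detected, and to 1.33 without those 3 cells. The 3 Ifitm genes summed to 8.52 with and 8.54 without them, and the 3 cells held no Ifitm1 transcript, so the Ifitm1 mean went from 2.76 to 2.95 without them, and that of Ifitm3 from 3.07 to 2.767.

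From E10 IAHC to YS HSPCs, where all 3 Ifitm genes were lower, 10 targets could be compared, of which 2 were higher (Psmb10, 0.425 to 1.475, and Xaf1) and 1 lower (Bst2, which encodes tetherin), where 3.83% of 3812 genes were higher and 6.4% lower. From E11 EHT to c-kit+ CD31+ IAHC cells, 1 of 13 was higher (Bst2) and 5 were lower (B2m, H2-K1, H2-D1, Xaf1 and Eif2ak2), where 5.17% of 5495 genes were higher and 10.6% lower. Without the cells with macrophage markers, 3 of 12 were higher (Bst2, Ly6e and Psmb10) and 4 lower (H2-K1 no longer), and the median log2 ratio went from -0.39 to -0.04. Among 5 genes whose products act on IFITM proteins, Nedd4, a ubiquitin ligase that targets IFITM3, was lower in cluster cells than in endothelium. It had 4.95 per cell in E10 HE, 3.82 in EHT and 1.19 in IAHC cells, and 8.98, 6.15 and 1.75 in E11 HE, EHT and c-kit+ CD31+ cells. The others were at or below 0.633 per cell. From E10 HE to IAHC cells, Zmpste24 rose from 0.102 to 0.151, and Zdhhc20 (0.286 to 0.233), Zdhhc7 (0.163 to 0.123) and Setd7 (0.184 to 0.0685) fell. At E11, Setd7 alone was higher in c-kit+ CD31+ cells than in HE (0.249 against 0.152). Of the other family members, Ifitm7 reached 0.152 per cell in E11 YS HSPCs, where the 2 cells with the most Ifitm1 held 4 and 2 of its transcripts and the other 44 had a mean of 0.0227, and 0.109 in E11 HE and EHT cells, Ifitm5 stayed at 0.0333 or below, Ifitm6 had 1 transcript, in a c-kit+ CD31+ IAHC cell at E11, and Ifitm10 had none in the single cells.

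Whole clusters gave the comparison with replicates. Each library is 1 IAHC picked from a slice of a wild-type embryo and noted as ventral or dorsal, and 57 of 109 libraries had at least 5000 transcripts (5099 to 115328). Clusters from the same embryo are not marked, so p-values measure the spread between clusters. In a whole cluster, fewer cells of a type and less RNA per cell cannot be told apart. Values are transcripts per 10000, which at these depths rest on few molecules. The column names mark some E11 clusters with a 2, called collection set 2 here, and all other clusters were taken as set 1. The names do not say what these sets were, nor that the E10 clusters shared a batch with the E11 clusters of set 1. Both E10 groups were thus in set 1, and the 17 E11 ventral clusters were in both sets (4 and 13).

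Ifitm1 had a lowest, median and highest value of 0, 0.834 and 8.44 in the 21 E10 ventral clusters and of 0.320, 3.57 and 15.9 in the 17 E11 ventral clusters. It was at 0 in 7 E10 and in 0 E11 ventral clusters, and the groups overlapped. Ifitm3 had 0, 0.969 and 5.05 at E10 and 0, 2.48 and 10.3 at E11, again with overlap. Ifitm2 had 0, 2.02 and 4.24 at E10 and 0, 1.98 and 7.12 at E11, with medians that nearly met.

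By edgeR's quasi-likelihood test with Benjamini-Hochberg adjustment over 13627 genes, Ifitm1 was higher in E11 than in E10 ventral clusters by 1.18 on the log2 scale (SE 0.31, interval 0.57 to 1.79, adjusted p = 0.0118) and Ifitm3 by 1.18 (SE 0.34, interval 0.51 to 1.85, adjusted p = 0.0306). Ifitm2 differed by 0.07 (-0.56 to 0.70, adjusted p = 0.978). Thus 2 of the 3 members were called, both higher, beside 2.27% of genes called in either direction, and the median gene differed by -0.10. This fit had no filter on low counts, since edgeR's default filter kept 260 genes and none of the members. With a filter at a count of 1, the adjusted p was 0.00693 for Ifitm1 and 0.0162 for Ifitm3, beside 4.38% of 6411 genes called.

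Both calls were lost when the collection set was a term, with log2 folds of 1.13 for Ifitm1 (adjusted p = 0.208) and 1.422 for Ifitm3 (adjusted p = 0.142) by edgeR's quasi-likelihood test without the filter. Within set 1 alone the folds were 1.4 (adjusted p = 0.166) and 0.79 (adjusted p = 0.697), from 4 E11 ventral clusters, in which Ifitm1 was 9.96, 2.06, 2.98 and 4.01. Set 2 holds no E10 cluster. Leaving out each ventral cluster in turn, the Ifitm1 fold ranged from 0.98 to 1.499, and its adjusted p passed 0.05 only without the E11 cluster with the highest Ifitm1 value (15.9, in a library of 10380 transcripts), where edgeR gave 0.0755. The Ifitm3 fold ranged from 0.99 to 1.28, and its adjusted p rose above 0.05, to at most 0.120, when any of 6 clusters was left out. These were the E10 cluster of 47285 transcripts and the E11 clusters of 10380, 12336, 12838, 12998 and 28391 transcripts.

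Red blood cell transcripts also differed between these ventral groups. The 9 erythroid genes had a median of 1.517 and a highest value of 4.95 per 10000 at E10 and of 30.3 and 2373 at E11, and 8 of them were called higher. Mesenchymal genes had 2 of 9 called higher (Col1a1 and Sox11), macrophage genes 1 of 8 lower (Fcgr3), and the 12 endothelial and 11 haematopoietic genes had none called. Their part in the Ifitm1 and Ifitm3 differences was not tested, and without the clusters with over 10% haemoglobin transcripts (filter at a count of 1) the log2 fold was 1.4 for Ifitm1 and for Ifitm3, with adjusted p of 0.000361 and 0.00109 by edgeR. Of 40 other interferon targets tested, 2 were higher (Ly6a, log2 fold 2.26, and Xaf1, 1.956) and 0 lower, beside 2.27% of all genes called in either direction. The median log2 fold of the targets was 0.23, beside -0.10 over all genes. None of the 5 receptors, 16 signalling genes or 5 genes acting on IFITM proteins was called.

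In dorsal clusters, Ifitm1 had a lowest, median and highest value of 0.713, 1.08 and 3.02 in 7 E10 clusters and of 0, 1.689 and 9.64 in 12 E11 clusters. Ifitm2 had 1.467, 2.15 and 3.06 at E10 and 0, 2.07 and 5.13 at E11. Ifitm3 had 0, 1.618 and 6.06 at E10 and 0, 0.452 and 5.91 at E11, with 6 of 12 E11 clusters at 0. The groups overlapped for all 3. By edgeR's quasi-likelihood test the folds were 0.42 for Ifitm1 (-0.62 to 1.466), -0.40 for Ifitm2 and -0.01 for Ifitm3, with adjusted p of 0.814, 0.796 and 1. No member was called, and 0.785% of genes were called in either direction.

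Between ventral and dorsal clusters at E11, Ifitm1 was higher in ventral ones by 1.01 on the log2 scale (0.23 to 1.79), with an adjusted p of 0.453 by edgeR. Ifitm2 had 0.50 and Ifitm3 0.66 (adjusted p = 0.711 and 0.617). At E10 the folds were 0.25, 0.03 and -0.53 (adjusted p = 0.985, 1 and 0.897). The difference between sides in the change from E10 to E11, tested as an interaction in edgeR, was 0.76, 0.47 and 1.19 (adjusted p = 0.919, 1 and 0.755). No member was called in these 3 comparisons, which called 0.0587% of genes at E10, 0.0881% at E11 and 0.154% for the interaction. The ventral difference was thus not shown to differ from the dorsal one.

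**Figure D5:**
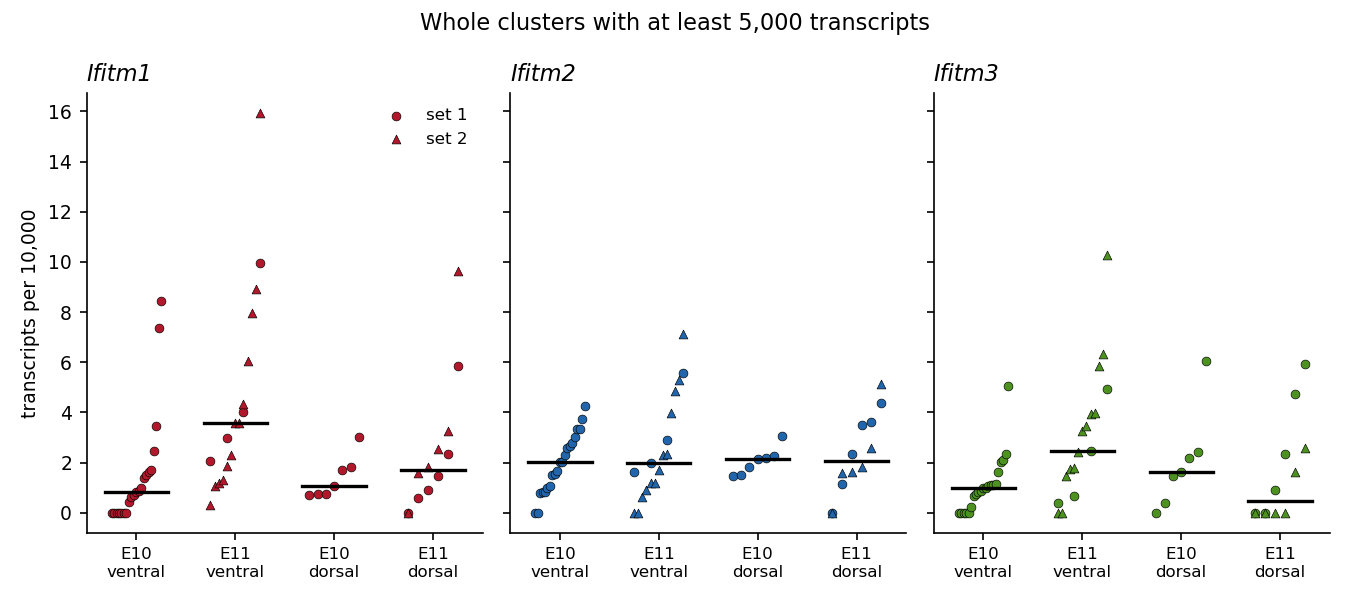
Level of Ifitm1, Ifitm2 and Ifitm3 (y axis, transcripts per 10000) in each whole cluster with at least 5000 transcripts (x axis, stage and side). Points are clusters, circles for collection set 1 and triangles for set 2, and bars are medians. The E11 ventral clusters reach 15.9 for Ifitm1 and overlap the E10 ventral clusters.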

How the data were processed

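CEL-Seq transcripts were counted in 1121 sorted single cells and 109 whole clusters. Per the submitters' processing notes, reads were aligned with BWA 0.6.2-r126 to mm10. The authors deposited single-cell counts down-sampled to 3000 (E10) or 5000 (E11) transcripts per cell with 0.1 added, which was subtracted here. The authors deposited whole-cluster values as estimated counts, in which unique barcodes were corrected for collisions among 256, and these were rounded. Spike-in rows were left out.

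Populations, sides and stages came from the sample labels, and sorted sets and collection sets from the column names. Single cells were described with exact 95% intervals and no test, except that pre-HSC types were also paired by set (exact sign-flip test). Whole clusters with at least 5000 transcripts were tested with edgeR 4.0.16 (R 4.3.3; TMM, quasi-likelihood, Benjamini-Hochberg) in 4 groups. Its default filter removed the members, so their values come from the fit without a filter, with a filter at a count of 1 added. On simulated ventral counts of 6411 genes, edgeR recovered 78 of 100 genes changed 4-fold, 14 of 100 changed 2-fold and called 6 of 6211 unchanged genes. DESeq2 1.42.0, no TMM, other depth minimums, undone collision correction, the collection set and single libraries or sets left out were tried as alternatives.

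Named genes are the 3 members, the 5 genes most like each, and the list genes past a 2-fold difference or called. Genes of short lists and genes that describe cells are named as well. Likeness used log2 transcripts per 10000 plus 0.2, for genes reaching 1 per 10000. The members and lists were chosen with earlier results of these data known. No doublet caller was run on sorted wells. Some values of the interferon lists are not reported here.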

Additional observations from a re-analysis of the deposited data

Results flagged for a closer look

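In the 7 E10 dorsal whole clusters, 1 cluster stood apart from the rest for Ifitm3, at 6.06 transcripts per 10000 with the next at 2.44. Its gap to the next cluster was 0.598 of the whole range, above Dixon's critical value for 7 samples. The value rests on 4 molecules in a library of 6656 transcripts. Chance alone marks about 1 in 20 groups in this way.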

How the results depend on the processing

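Of 64 levels in single cells under other settings, 63 moved by less than their counting interval, of 173 ratios 164, and of 147 values of the members in whole clusters 128 kept their direction and side of the threshold. With a pseudocount of 0.5, the log2 ratio of Ifitm1 from E10 HE to EHT was 1.87, those from E10 IAHC to YS HSPCs were -1.80, -1.001 and -1.46 for Ifitm1, Ifitm2 and Ifitm3, and that of Ifitm1 from E10 to E11 YS HSPCs was 1.56. Without the 2 highest E11 YS cells, the Ifitm1 mean was 0.909, its log2 ratio to c-kit+ CD31+ IAHC cells -1.19 and its log2 ratio to E10 0.77. Over genes of both tables, the log2 stage ratio was 0.14 for Ifitm2 in EHT and -0.39 for Ifitm1 in IAHC cells. Over all genes, leaving out single sets, they ranged from -0.59 to -0.17 and from -0.76 to -0.59. The sign for Ifitm2 in EHT thus differed between the 2 ways. A 1.5-fold limit gave 85 differences of list genes, against 38 at 2-fold, and a lower limit can only add to the count. No share over all genes stands beside these counts, so they do not show an excess in the lists.

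Leaving out single sets, the log2 ratios ranged from -0.18 to 0.76 for Ifitm3 from E10 non-HE to HE, from -0.33 to 0.12 for Ifitm2 and -0.16 to 0.77 for Ifitm3 from E10 HE to EHT, from -0.54 to 0.20 for Ifitm1 from c-kit+ CD31+ to c-kit+ IAHC cells, and from 0.080 to 1.005 for Ifitm3 from E10 to E11 HE. The means ranged from 0 to 0.0667 for Ifitm1 in E10 non-HE and 0 to 0.0909 in E11 non-HE, and from 1.65 to 2.28 for Ifitm2 and 0.730 to 1.475 for Ifitm3 in E10 HE. In E10 EHT they ranged from 1.61 to 2.17 for Ifitm1, 1.603 to 2.17 for Ifitm2 and 1.118 to 1.55 for Ifitm3. They ranged from 0.231 to 0.395 for Ifitm1 in E10 YS HSPCs, 0.964 to 1.43 for Ifitm3 in type I, 1.82 to 2.18 for Ifitm2 in c-kit+ CD31+ and 1.484 to 2.56 for Ifitm1 in c-kit+ IAHC cells.

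With edgeR's default filter, 81 genes were called between ventral stages and 24 between dorsal ones (DESeq2: 89 and 28). The ventral count was 310 without a filter, 132 with at least 10000 transcripts and 39 with the collection set as a term, and the dorsal count 107 without a filter, 40 without TMM and 3 with at least 10000 transcripts. Between sides and for the interaction 0 genes were called by edgeR and by DESeq2, with 20, 23 and 26 at an unadjusted p under 0.05 by edgeR, and 8, 12 and 21 were called without a filter. With a filter at a count of 1, DESeq2 called 89 genes between sides at E11, all higher in ventral clusters, where edgeR called 8 (the members had no adjusted p there by DESeq2), and 161 and 162 between ventral and dorsal stages, where edgeR called 281 and 131. Each setting that kept the default filter gave no value for the members, so these were run with a filter at a count of 1.

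The ventral folds of Ifitm1 and Ifitm3 lost their call by edgeR with the set as a term (1.13, adjusted p = 0.208, and 1.422, adjusted p = 0.142, without a filter, and 1.13, adjusted p = 0.146, and 1.41, adjusted p = 0.0860, at a count of 1) and in set 1 alone (1.4 and 0.79). Leaving out each ventral cluster in turn, they ranged from 0.98 to 1.499 and from 0.99 to 1.28, and that of Ifitm2 from -0.19 to 0.20. The uncalled dorsal folds changed sign for Ifitm2 with at least 2000 transcripts (0.076) and for Ifitm3 at a count of 1 (0.031), there also by library size only (0.37), with at least 2000 (0.28) or 10000 transcripts (0.96), with whole molecules (0.015), with the set as a term (0.12) and without clusters rich in haemoglobin (0.13), and without a filter with the set as a term (0.10) and in set 1 alone (0.53). Between sides, the sign changed for Ifitm2 at E10 by library size only (-0.036) and for Ifitm3 at E11 with at least 10000 transcripts (-0.0099) and in set 1 alone (-0.30). The cause was not tested. Depth limits the members, since a whole cluster held 0 to 33 molecules of each. With the set as a replicate block, the mean log2 ratio of type II to type I pre-HSCs within 3 shared sets was 0.71 for Ifitm1, -0.36 for Ifitm2 and 0.31 for Ifitm3 (exact two-sided sign-flip permutation p of 0.25, 0.5 and 0.25, and 0.25 is the smallest possible), added after seeing the data. No number ties 1 whole cluster to another, and the collection sets that clusters share were run as a term (above).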

Other observations

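The 2 E11 yolk sac cells with 52 and 45 Ifitm1 transcripts, looked at after their values were seen, also held more of other genes (given in that order) than the other 44 yolk sac cells. They had 11 and 9 transcripts of S100a10, an annexin partner, against a mean of 1.02, 12 and 14 of Apoe, the apolipoprotein E gene, against 1.909, and 9 and 5 of Plac8 against 0.545. Ifitm7, which lies on chromosome 16 apart from the other 3 genes, had 4 and 2 transcripts in them and a mean of 0.0227 in the rest. Ifitm2 had 4 and 6 against 0.909. Ifitm3 had 0 in both cells and 0.341 in the rest. They held 0 and 1 transcripts of Kit, the gene of the surface protein used in the sort, against 0.477, and 3 and 0 of Cd34 against 2.39. With 2 cells, no test was made.

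In E11 EHT cells, the 3 cells with at least 4 macrophage markers held a mean of 7.33 Ifitm3, 1 Ifitm2 and 0 Ifitm1 transcripts, against 2.767, 2.81 and 2.95 in the other 43. These 3 cells held 15.7 transcripts of Ly6e and 36.7 of B2m per cell, against 0.302 and 2.70. The values are of single cells from 1 sorted set.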
